A study of Homo sapiens with 22 samples.

Results

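Transposon insertions were examined around 10 genes that act below the BCR-ABL1 kinase, of 19962 protein-coding genes on chromosomes 1 to 22 and X. The 10 were chosen by their place in the pathway and not by a threshold on insertions, but with earlier results of these data known. They are the transcription factors STAT5A and STAT5B, the kinase JAK2, the receptors EPOR and KIT, the feedback inhibitor CISH, and the survival and cell cycle genes PIM1, BCL2L1, MCL1 and CCND2. Each gene was taken with its body and 50 kb either side, called its window. The windows held 72654 of 52121198 insertions, each counted once, on 6774 of 19049403 TTAA sites. They thus took up 0.139% of the insertions and 0.0356% of the sites.

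BCR-ABL1 is the fusion kinase of chronic myeloid leukemia, and the K562 line carries it. The kinase phosphorylates STAT5A and STAT5B, which then enter the nucleus and switch on genes that keep cells alive and dividing. In normal red cell precursors the same factors are reached through the receptors EPOR and KIT and the kinase JAK2, and CISH is a STAT5 target that dampens the signal again. The piggyBac transposase inserts at the tetranucleotide TTAA.

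All 20 libraries were made from K562, a human erythroleukemia line in continuous culture. Cells received, by Neon electroporation, the donor plasmid Barcoded-PBase-SRT-Puro and a helper plasmid that supplies the transposase, and were kept under puromycin for 11 days. The helper was hyPBase (labelled WTHYPB) in 10 libraries and hyPBase-centrip in the other 10, and no transcription factor fusion is named in the labels. How hyPBase-centrip differs from hyPBase is not stated in the sources used here. Transfections shared dishes and RNA isolations in sets of 3, so p-values measure the spread between libraries that may not be independent cultures. Insertions are read from RNA that starts inside the transposon and runs into the flanking genome, so the values count recovered insertions.

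Depth was 1509672 to 3596762 insertions per library, and 100% of them lay on a TTAA. Reads per insertion averaged 3.87 ± 0.732 (SD, n = 10) in the hyPBase libraries and 3.00 ± 0.540 (SD, n = 10) in the hyPBase-centrip libraries. Each library used 26 barcodes, so a site can hold at most 52 distinct insertions per library over both orientations. The body of CDKN2A, a gene known to be deleted in K562, held 1 insertion on 220 TTAA sites, where the genome averaged 2.74 insertions per site.

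The TTAA site with the most insertions in each window is shown first. These sites held from 1.70% (KIT) to 9.62% (EPOR) of the insertions of their windows. Each is given with 30 bases of hg38 on the plus strand, 5′ to 3′, and the capitals mark the TTAA.
STAT5A and STAT5B, chr17:42317680-42317683: tatcaccaagtctTTAAagaacatggagac
JAK2, chr9:4985759-4985762: aaaatcttcctctTTAAgacgacacctaga
KIT, chr4:54668270-54668273: agaactctgtcacTTAAggaagaggcgtgt
EPOR, chr19:11377260-11377263: tagctagtggcccTTAAacagctttgccct
CISH, chr3:50614197-50614200: gccaacttagtacTTAAttctcctgccctg
PIM1, chr6:37193697-37193700: agtgttaaggagtTTAAgaaccagtaaaaa
BCL2L1, chr20:31681144-31681147: cctggtaggccatTTAAagacttgggcttg
MCL1, chr1:150613607-150613610: tacttttggacatTTAAgaaatatcctggg
CCND2, chr12:4271501-4271504: ttagatttatactTTAAaaatacctcccgc
The STAT5A and STAT5B windows overlap and share their leading site, which lies in intron 21 of STAT3. The JAK2 and KIT sites lie in intron 1 of their own gene, the BCL2L1 site in intron 2 and the EPOR site in exon 8. The CISH and MCL1 sites fall within the bodies of MAPKAPK3 and ENSA. The PIM1 site is intergenic.

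Insertion density was taken as insertions per TTAA site, and each window was divided by the rest of the 1 Mb centred on its gene. Most of copy number should cancel in this ratio. Values per site and multiples of the genome average were not corrected for copy number, so they are not a measure of preference alone. The windows of CISH, BCL2L1, STAT5A, STAT5B, PIM1, MCL1 and CCND2 were denser than their surroundings, and those of JAK2, KIT and EPOR were sparser. All 10 passed limma at an adjusted p-value below 0.05 over 19838 genes. The call is a common one: 47.7% of genes passed as denser and 45.7% as sparser. Read against all genes, 6 of the 10 members ranked at or above the 90th percentile of local density. Their median was 2.79-fold, where the median of all genes was 1.01-fold and the 95th percentile 3.02-fold. STAT5A and STAT5B share most of their insertions and are not separate observations.

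**Figure D1:**
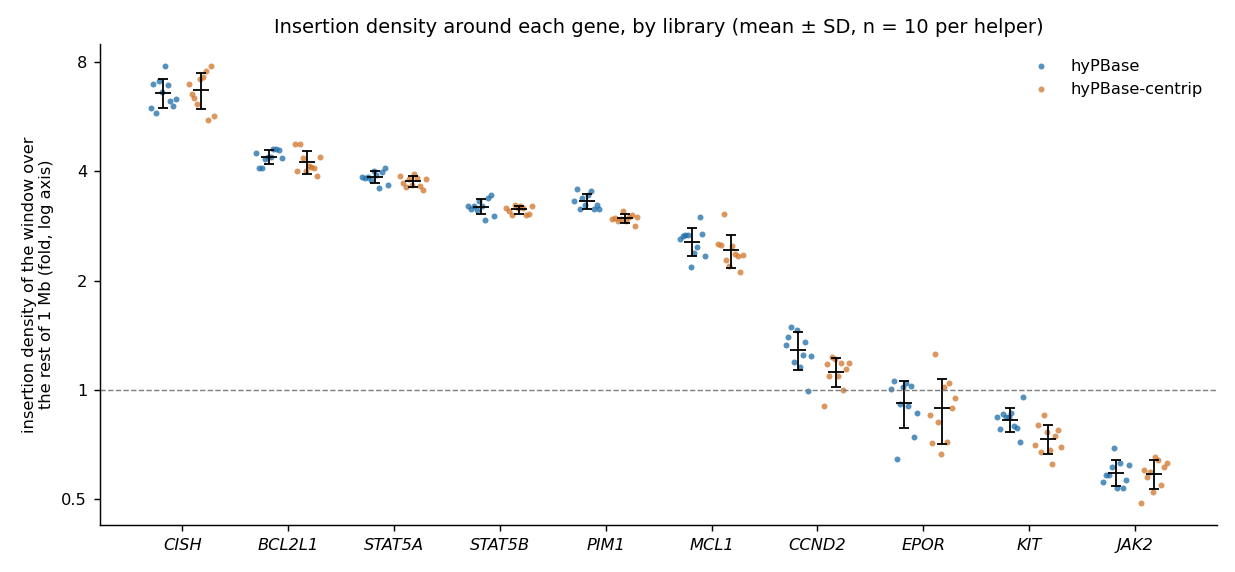
Insertion density per TTAA site in each gene window divided by that of the rest of 1 Mb (vertical log axis, fold), for each of 20 libraries. Points are libraries coloured by helper, and bars show mean ± SD (n = 10 per helper). All 20 libraries lie above 1 for CISH, BCL2L1, STAT5A, STAT5B, PIM1 and MCL1, and none does for KIT or JAK2.

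**Figure D2:**
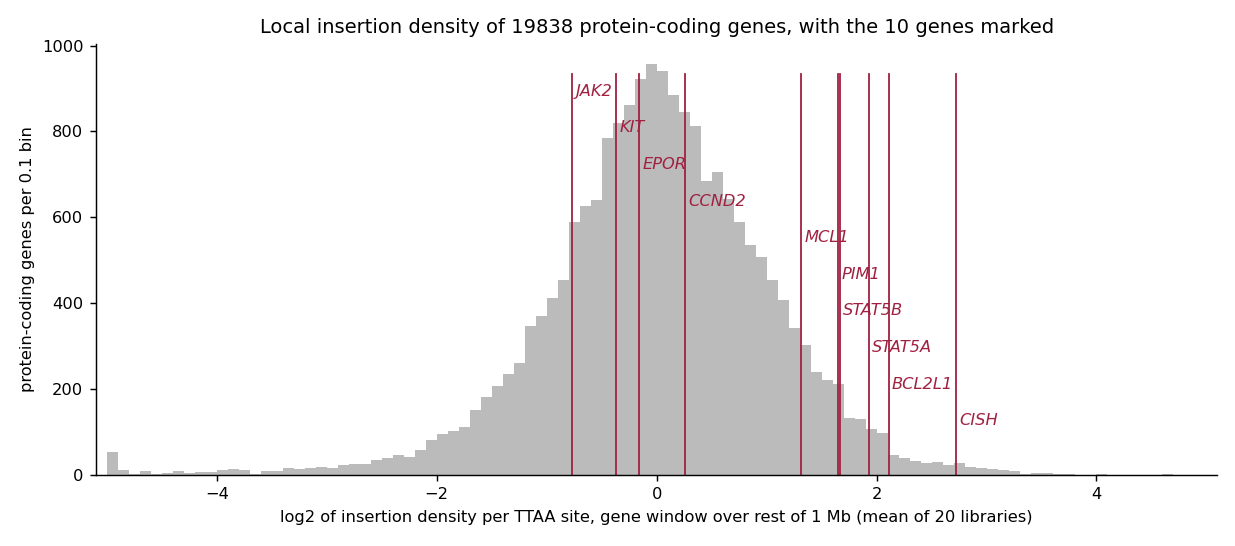
Histogram of the log2 ratio of window density to the rest of 1 Mb for 19838 protein-coding genes, averaged over 20 libraries (bins of 0.1). Red lines mark the 10 genes, from JAK2 at -0.77 to CISH at 2.72.

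STAT5A and STAT5B encode the paired signal transducers that carry the kinase signal to DNA, and lie head to head on chromosome 17 (STAT5A at chr17:42287547-42311943, plus strand; STAT5B at chr17:42199176-42288633, minus strand). The STAT5A window held 21654 insertions on 611 TTAA sites, or 35.4 per site, and the STAT5B window 21792 on 721 sites, or 30.2 per site. With hyPBase the STAT5A density was 3.61, 3.86 and 4.09 times the surroundings at the lowest, median and highest library. With hyPBase-centrip it was 3.56, 3.76 and 3.93. The 2 groups overlapped, and every library was far above 1 (log2 ratio 1.93 ± 0.014 SE, limma adjusted p = 7.60e-32). STAT5B stood at 2.94, 3.20 and 3.45 with hyPBase and at 3.02, 3.17 and 3.24 with hyPBase-centrip, again overlapping (log2 ratio 1.66 ± 0.015 SE, limma adjusted p = 2.28e-30).

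Little of this density lay in STAT5A itself. Its body held 656 insertions, 3.03% of the window, at 2.01 times the surrounding density. The flank upstream of it reached 4.37-fold, which lies inside the body of STAT5B, and the downstream flank 3.33-fold, which enters the neighbouring gene STAT3. In STAT5B the first intron was at 4.13-fold in 319 sites, against 0.691-fold in its later introns, and the flank below the gene was at 0.455-fold. All 20 libraries put the first intron above 1 and the later introns below it. The first intron held 12597 insertions, of which 6582 fell on chr17:42269501-42275984. That segment lies next to the RefSeq promoter of STAT5B (chr17:42276342-42276641), which is inside the body taken here. The upstream flank of STAT5B was 11.3 times as dense as its downstream flank, a ratio that ranked at percentile 99.2 of genes, whose median was 1.09. That flank begins at the outer annotated edge of STAT5B and not at the RefSeq promoter. Of its 7752 insertions, 6744 fell on chr17:42311832-42320782, which spans the far end of STAT5A and part of STAT3. The ratio thus rests mostly on insertions beyond STAT5A and not on sites next to the STAT5B start.

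The leading STAT5A and STAT5B site collected 680 insertions in all. It held 27, 33.5 and 37 per hyPBase library (lowest, median and highest) and 31, 34.5 and 38 per hyPBase-centrip library. Those counts come close to the ceiling of 52, and the highest count at any site of the genome in 1 library was 43. Differences in density between the fullest sites are therefore compressed. In the 10 windows, 134 values of a site in a library reached 26 insertions or more.

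JAK2, the cytokine receptor kinase that phosphorylates STAT5 in normal cells (chr9:4984390-5129948, plus strand), had the sparsest window for the surrounding 1 Mb. Against the rest of 2 Mb it was KIT (log2 -0.64) that was sparser than JAK2 (log2 -0.19). The JAK2 window held 6170 insertions on 1969 sites, or 3.13 per site. Its density was 0.535, 0.583 and 0.689 times the surroundings with hyPBase, and 0.488, 0.599 and 0.655 with hyPBase-centrip. No library reached 1, and the groups overlapped (log2 ratio -0.77 ± 0.030 SE, limma adjusted p = 7.47e-18, percentile 18.7).

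The average hides a sharp peak at the start of the gene. Within 1 kb of the JAK2 start the density was 11.1-fold (hyPBase 10.2 ± 2.60, hyPBase-centrip 11.9 ± 2.09, SD, n = 10 each), above 1 in 20 of 20 libraries and at percentile 88.7 of genes. The upstream flank was at 1.53-fold, the body at 0.464-fold and the downstream flank at 0.0983-fold, where 189 insertions fell on 363 sites. The downstream flank ranked at percentile 1.68. Upstream exceeded downstream 15.6 times, percentile 99.5. At the leading site, 1369 bases into the gene, 192 of 194 insertions pointed against the direction of JAK2.

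A dense stretch was defined on the pooled libraries as windows of 2 kb with at least 4 times the insertion density of the surrounding 1 Mb. The stretch at the JAK2 start (chr9:4979117-4988059) held 1816 insertions on 57 sites at 7.14-fold, and at least 5.73-fold in every library. Its central 300 bases (chr9:4983438-4983737, hg38, plus strand) lie just before the gene and are shown for the 5 TTAA sites they carry, in capitals.
JAK2 stretch centre: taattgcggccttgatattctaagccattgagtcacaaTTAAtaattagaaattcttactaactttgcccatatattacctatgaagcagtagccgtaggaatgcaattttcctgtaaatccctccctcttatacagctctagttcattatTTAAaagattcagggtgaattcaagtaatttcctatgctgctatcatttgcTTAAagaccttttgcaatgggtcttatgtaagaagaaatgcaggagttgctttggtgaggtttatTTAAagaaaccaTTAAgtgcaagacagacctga

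KIT, the stem cell factor receptor (chr4:54657267-54740783, plus strand), held 3880 insertions on 1268 sites, or 3.06 per site. The window stood at 0.718, 0.841 and 0.953 times the surroundings with hyPBase and at 0.625, 0.725 and 0.855 with hyPBase-centrip. All 20 libraries were below 1 (log2 ratio -0.37 ± 0.028 SE, limma adjusted p = 8.50e-12), and the groups overlapped. When barcodes were collapsed to 1 insertion per position and orientation in a library, the ratio was -0.02 and no longer passed (limma adjusted p = 0.567). KIT was the 1 member with no dense stretch. Its density fell along the gene: 1.31-fold upstream, 1.14-fold in the first intron, 0.396-fold in later introns and 0.438-fold downstream. Its leading site held 66 insertions, all 66 against the direction of the gene.

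EPOR, the erythropoietin receptor (chr19:11377207-11384342, minus strand), was the least settled of the 10. Its window held 946 insertions on 224 sites, or 4.22 per site. Ratios ran 0.647, 0.959 and 1.06 with hyPBase and 0.665, 0.872 and 1.26 with hyPBase-centrip. Both groups straddled 1, with 8 of 20 libraries above it (log2 ratio -0.16 ± 0.054 SE, limma adjusted p = 0.00698). The direction turned with a 20 kb flank (log2 0.16) and with the rest of 2 Mb as surroundings (log2 0.19). Inside the window the values were far apart. The 15 sites of the body held 224 insertions at 3.13-fold, in 20 of 20 libraries above 1, while the upstream flank stood at 0.437-fold in 0 of 20 above 1. Exon 8, the last exon, accounted for 207 of those 224 insertions, and 91 of them were at the leading site. The leading of 2 dense stretches (chr19:11376128-11377819) overlaps this exon and exon 2 of SWSAP1, a DNA repair gene on the other strand. It held 246 insertions on 10 sites at 4.86-fold, with 16 of 20 libraries at 4-fold or more and the lowest at 2.42-fold.

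CISH, a SOCS-family inhibitor and a direct STAT5 target (chr3:50606489-50611774, minus strand), had the highest density for its surroundings. The window held 1527 insertions on 217 sites, or 7.04 per site, while the rest of the 1 Mb held 1.06 per site, 0.388 of the genome average. Ratios were 5.79, 6.47 and 7.81 with hyPBase and 5.55, 6.73 and 7.78 with hyPBase-centrip. The ranges nearly coincide and all lie far above 1 (log2 ratio 2.72 ± 0.032 SE, limma adjusted p = 2.97e-28, percentile 99.5). Per site, CISH was still less dense than PIM1, STAT5A, STAT5B, MCL1 and BCL2L1, so its rank rests in part on sparse surroundings.

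The gene itself was almost out of reach of the method. Its body has 2 TTAA sites, neither in an exon, and 5 insertions. The dense sites flank it: 5.16-fold upstream and 8.12-fold downstream, the latter at percentile 99.6. Of 5 dense stretches, the one with most insertions (chr3:50613857-50617033) was centred at -3671 bases from the start, within the body of MAPKAPK3, a kinase gene on the other strand, at 15.9-fold with 355 insertions on 16 sites. Its lowest library was at 8.57-fold. At its 2 leading sites orientation was fixed: 114 of 114 insertions on the plus strand at the first and 93 of 93 on the minus strand at the other. The centre of this stretch (chr3:50615295-50615594, hg38, plus strand) is shown with its single TTAA in capitals.
CISH stretch centre: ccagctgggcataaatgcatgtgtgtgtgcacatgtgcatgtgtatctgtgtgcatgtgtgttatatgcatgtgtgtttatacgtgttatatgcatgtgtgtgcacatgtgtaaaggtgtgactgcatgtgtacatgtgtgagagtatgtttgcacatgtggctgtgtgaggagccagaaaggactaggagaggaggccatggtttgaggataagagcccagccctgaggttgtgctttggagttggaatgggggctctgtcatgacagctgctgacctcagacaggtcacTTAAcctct

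The CISH promoter is the sequence in which a STAT motif was found. TTCNNNGAA, the palindrome bound by STAT dimers, was searched on both strands in the 300 bases of RefSeq promoters (GRCh38.p14, 250 before to 50 after a start). It matched 4 times in CISH, at -241, -230, -129 and -112 from the start. Of 35116 promoters, 7.66% held at least 1 match and 0.0199% held at least 4. RefSeq promoters were found for 8 of the 10 members (MCL1 and CCND2 were not matched), 14 promoters in all, and the 13 others held no TTCNNNGAA. The CISH promoter also held no TTAA, so no insertion can report on it directly. The 250 bases before the start (chr3:50611775-50612024, minus strand) are shown with the 4 matches in capitals. A match is a description of letters and not a site of binding.
CISH promoter: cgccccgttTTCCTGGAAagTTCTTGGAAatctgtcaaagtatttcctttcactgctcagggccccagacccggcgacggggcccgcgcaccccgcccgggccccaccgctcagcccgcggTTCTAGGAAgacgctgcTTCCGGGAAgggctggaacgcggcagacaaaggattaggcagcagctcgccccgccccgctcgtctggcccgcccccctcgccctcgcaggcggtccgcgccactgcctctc

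PIM1, a serine/threonine kinase that promotes survival and a STAT5 target (chr6:37170152-37175428, plus strand), had the densest window per site. It held 16939 insertions on 416 sites, or 40.7 per site, which is 14.9 times the genome average. The surroundings were dense as well, at 13.0 per site, so the ratio was 3.14, 3.28 and 3.57 with hyPBase and 2.82, 2.97 and 3.11 with hyPBase-centrip. Every hyPBase library was above every hyPBase-centrip library, a difference taken up below. Both groups were far above 1 (log2 ratio 1.65 ± 0.015 SE, limma adjusted p = 2.26e-30, percentile 95.6).

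Density was carried by the body and the flank behind the gene. The body stood at 6.85-fold (percentile 98.7) and the downstream flank at 4.39-fold (percentile 97.5), with 11012 insertions, against 1.60-fold upstream. The largest of 6 dense stretches (chr6:37182311-37195069) was intergenic, with its centre 18538 bases behind the start, and held 5718 insertions on 50 sites at 7.26-fold. Its lowest library was at 6.12-fold.

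BCL2L1 encodes BCL-XL, an inhibitor of apoptosis in erythroid cells (chr20:31664452-31723989, minus strand). Its window held 11158 insertions on 656 sites, or 17.0 per site. Ratios were 4.07, 4.39 and 4.61 with hyPBase and 3.87, 4.13 and 4.77 with hyPBase-centrip, overlapping and all far above 1 (log2 ratio 2.11 ± 0.020 SE, limma adjusted p = 4.55e-30, percentile 98.5). Here the insertions were inside the gene. The body was at 9.73-fold, percentile 99.5, and its introns after the first held 74.8% of the window. The flanks were at 1.31-fold upstream and 2.07-fold downstream. The leading stretch (chr20:31676278-31687989, intron 2) held 2582 insertions on 44 sites at 9.78-fold and at least 8.94-fold in each library. Its centre (chr20:31681984-31682283, hg38, plus strand) holds 1 TTAA, in capitals, and 1 match, on the other strand, to AGATAA, the motif of the erythroid factor GATA1.
BCL2L1 stretch centre: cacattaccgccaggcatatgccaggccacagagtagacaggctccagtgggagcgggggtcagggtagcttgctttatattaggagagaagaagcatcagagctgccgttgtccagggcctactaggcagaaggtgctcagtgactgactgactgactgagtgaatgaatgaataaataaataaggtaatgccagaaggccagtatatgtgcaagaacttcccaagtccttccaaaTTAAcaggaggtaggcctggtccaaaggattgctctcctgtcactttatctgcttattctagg

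MCL1, a short-lived apoptosis inhibitor of the BCL2 family (chr1:150560895-150579738, minus strand), showed the reverse arrangement. Its window was dense, with 7496 insertions on 424 sites, or 17.7 per site. Ratios were 2.19, 2.63 and 2.99 with hyPBase and 2.12, 2.36 and 3.05 with hyPBase-centrip, overlapping (log2 ratio 1.31 ± 0.029 SE, limma adjusted p = 9.46e-23, percentile 91.4). The body was not: it stood at 0.942-fold of the 1 Mb outside the window, with 7 of 20 libraries above 1. When the dense flanks were counted among the surroundings, it was below them (log2 -0.24, limma adjusted p = 1.01e-05). Of the 100 TTAA sites of this body, 9 lay in introns and 23 in exons of the canonical transcript, and the others outside it. The upstream flank was at 3.28-fold and held the leading site and stretch, both within ENSA, a regulator of mitotic exit. With a 20 kb flank the log2 ratio was 0.21. The stretch (chr1:150618971-150623742) held 1490 insertions at 6.24-fold.

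CCND2, cyclin D2, which drives cells from G1 into S phase (chr12:4269771-4305353, plus strand), was close to its surroundings. It held 1810 insertions on 743 sites, 2.44 per site and 0.890 of the genome average. Ratios were 0.990, 1.29 and 1.49 with hyPBase and 0.905, 1.16 and 1.23 with hyPBase-centrip, with 17 of 20 libraries above 1 (log2 ratio 0.26 ± 0.034 SE, limma adjusted p = 1.93e-07, percentile 60.8). The single stretch (chr12:4270820-4273376) was centred 2327 bases behind the outermost annotated start of CCND2, in the gene body outside its canonical transcript. It lay in intron 1 of CCND2-AS1, a long noncoding RNA gene. Its centre lay before the nearest protein-coding start, which is that of an overlapping gene. The stretch held 188 insertions on 11 sites at 8.27-fold. The site with most insertions gave 103 of them, 98 against the direction of CCND2.

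**Figure D3:**
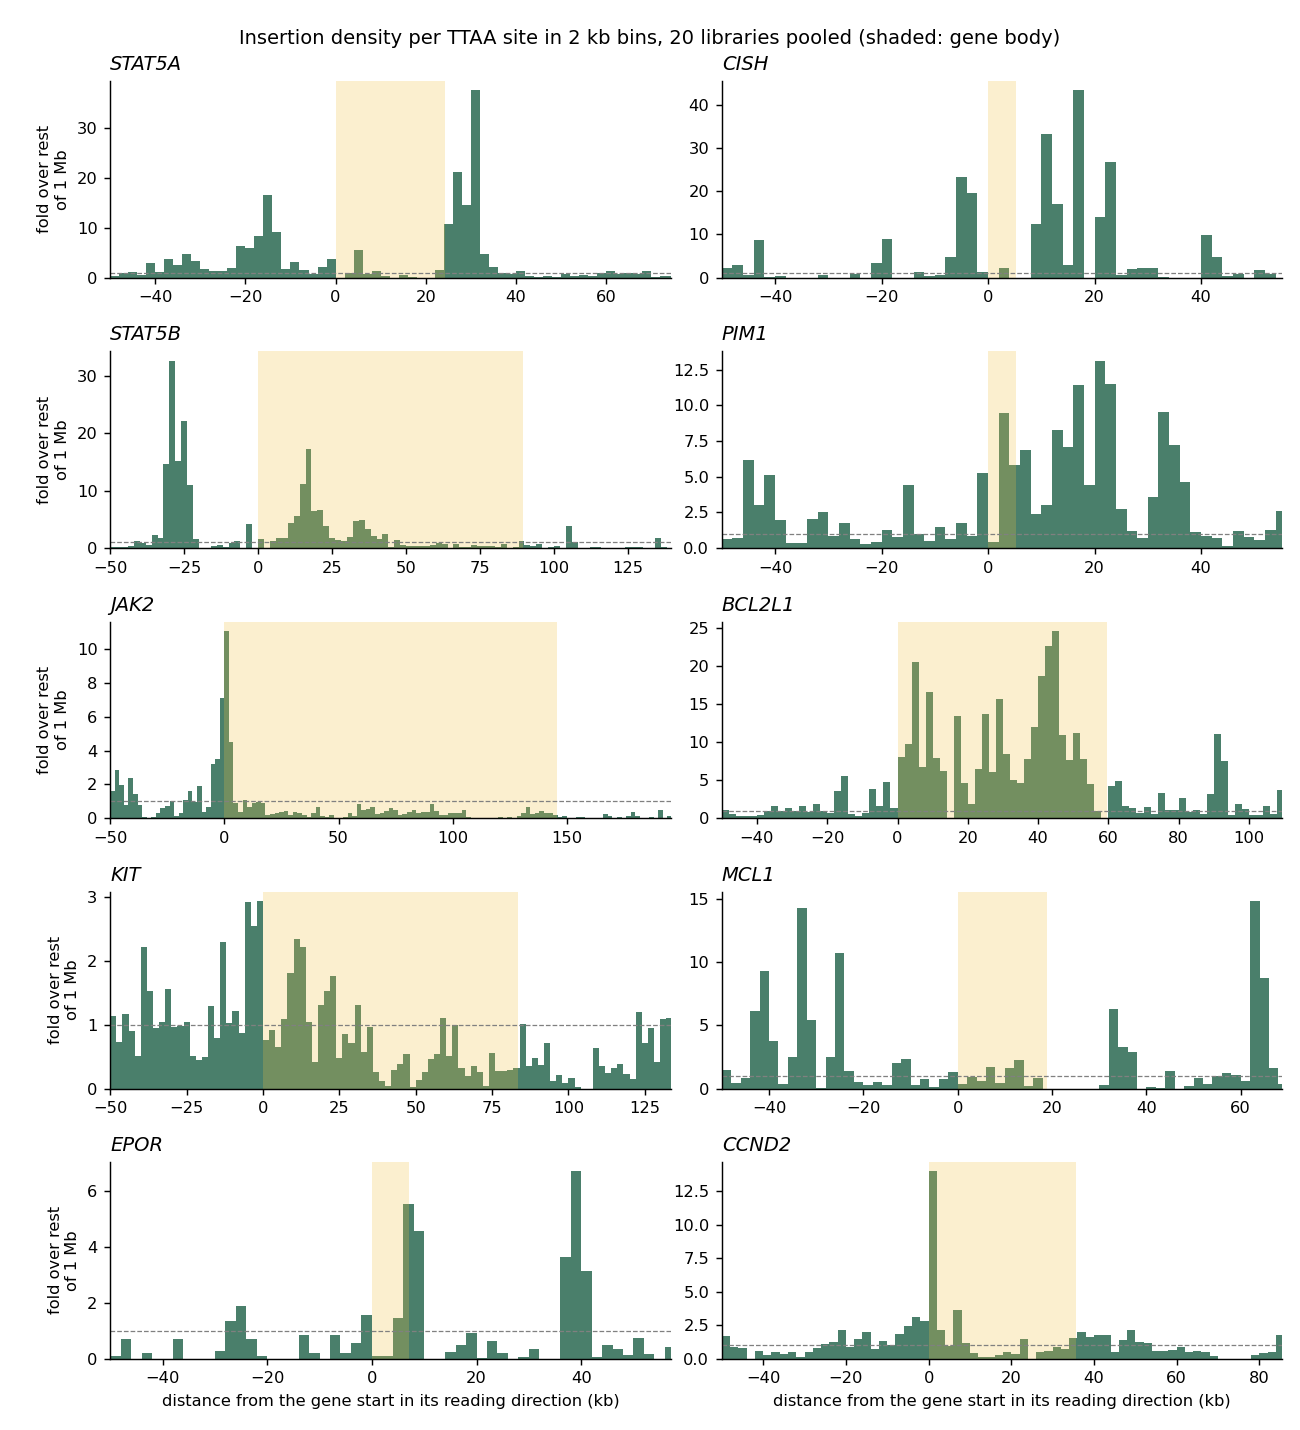
Insertion density per TTAA site in 2 kb bins over the density of the rest of 1 Mb (vertical axis, fold, 20 libraries pooled), by distance from the gene start in its reading direction (kb), with the gene body shaded. JAK2 peaks at the start, BCL2L1 throughout its body, PIM1 in and behind its body, and STAT5A, MCL1 and CISH outside theirs. CCND2 peaks just behind its outermost annotated start, outside its canonical transcript. Bins with few TTAA sites vary widely, and vertical scales differ between genes.

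Across the 10 windows there were 34 distinct dense stretches, 1316 to 12759 bases long, with a median of 3262. In the genome there were 24013, which held 33.6% of the insertions on 3.03% of the TTAA sites. At least 1 stretch fell in 9 of 10 member windows and in 75.9% of all gene windows. The counts were 8 for MCL1, 7 for BCL2L1, 6 for PIM1, 5 for CISH, 3 shared by STAT5A and STAT5B, 2 each for JAK2 and EPOR, 1 for CCND2 and 0 for KIT. As many as 6 stretches were found in 8.97% of gene windows and as many as 8 in 3.11%. Of the 34, 17 were at least 4-fold in each of the 20 libraries, where 34.3% of all stretches were, and 5 had their centre within 1 kb of a protein-coding start, where 11.7% of all stretches did.

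Stretches were also called in each helper alone. In the member windows hyPBase gave 33 and hyPBase-centrip 36, and 93.9% of the former and 88.9% of the latter overlapped a stretch of the other helper. Over the genome the shares were 92.9% and 85.8%.

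Orientation was the share of insertions in a gene body that pointed the way the gene is read. In most genes it was low: 84.8% of 9386 genes that no protein-coding gene overlaps on the other strand had fewer insertions in the gene's own direction (limma, adjusted p below 0.05), and the median share was 31.7%. The 5 members in that fit, EPOR, KIT, PIM1, BCL2L1 and CCND2, were all among them. With overlapped genes included, an analysis added after the data were seen, 82.7% of 12707 genes passed in this direction and 6.86% in the other, and 8 of 9 members passed in this direction. The exception was MCL1, which passed in neither. CISH, with 5 insertions in its body, was not tested.

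EPOR had 11.6% in its own direction (hyPBase 12.1 ± 5.87, hyPBase-centrip 10.8 ± 7.25, SD, n = 10 each, log2 ratio -2.66 ± 0.19 SE, limma adjusted p = 1.14e-11). Of its 224 body insertions, 1 site of exon 8 held 91 and another 66, of which 84 and 66 pointed against EPOR. The EPOR share thus describes mainly these sites. KIT had 17.4% and JAK2 17.1%, below 50% in 20 of 20 libraries each. PIM1 had 18.5%, from 11.3 to 21.4% in the hyPBase libraries and from 16.5 to 26.6% in the hyPBase-centrip libraries. These 4 bodies were more one-sided than the median gene.

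CCND2 had 28.2%, BCL2L1 29.0% and STAT5A 29.7%, close to the median gene. STAT5B was nearly balanced at 48.6% (log2 ratio -0.09 ± 0.033 SE, limma adjusted p = 0.0153 with overlapped genes included). Its hyPBase libraries ran from 43.1 to 49.5% and its hyPBase-centrip libraries from 48.5 to 53.9%. MCL1 was at 54.6% (log2 ratio 0.31 ± 0.15 SE, limma adjusted p = 0.0511), with 3 of 20 libraries below 50%. Of its 679 body insertions, only 24 lay in introns and 132 in exons of the canonical transcript. The MCL1 share thus describes mostly parts of the body outside that transcript.

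Last exons held larger shares in the direction of the gene than introns in the 7 members with at least 20 insertions in both. PIM1 had 8.07% of 1376 intron insertions in its own direction but 63.9% of 316 in its last exon, and STAT5A 7.69% of 390 against 69.3% of 238. All 20 libraries put exons above introns in PIM1 and in STAT5A. BCL2L1 had 28.9% in introns and 96.9% of 32 in the last exon. The last exons of STAT5A and BCL2L1 have 1 TTAA site each, so their shares describe single sites. CCND2 had 16.7% against 75.8%, and MCL1 37.5% of only 24 against 78.6%. STAT5B had 48.1% against 85.9%. JAK2 had 16.6% against 44.1%, which is still below 50%.

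Taking all exons, the share was higher than in introns in 8 of 8 members with at least 20 insertions in both. By library it was higher in 18 of 20 for STAT5B, 15 of 20 for JAK2, 17 of 19 for CCND2, 16 of 17 for BCL2L1, 13 of 15 for KIT and 11 of 15 for MCL1, counting libraries with insertions in both. The same held for 87.5% of 7841 genes that no protein-coding gene overlaps on the other strand, so it is not particular to the members. MCL1, JAK2, STAT5A and STAT5B are overlapped and not among the 7841. Over genes not overlapped in this way, the median share was 24.8% in introns, 54.8% in last exons and 19.0% in earlier exons. Among the members, only JAK2 (17.1% of 35) and STAT5B (10% of 30) had at least 20 insertions in earlier exons. The exon shares of the members thus rest mostly on last exons. EPOR had too few insertions in introns to enter, with 17.6% of 17 in its own direction, and its last exon was at 11.1% of 207. The separation of exons and introns was added after the data were seen and is given without a test.

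**Figure D4:**
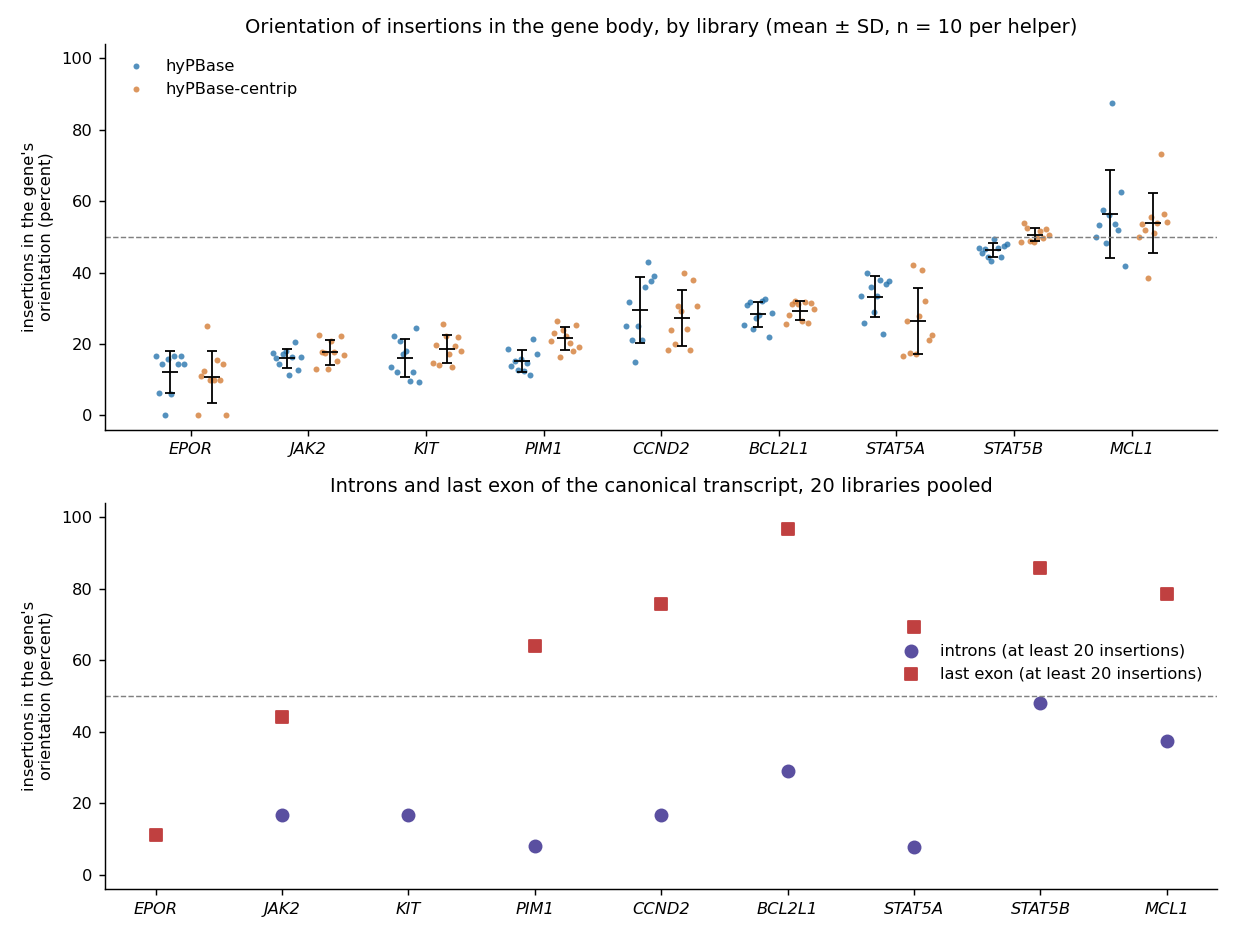
Percent of gene-body insertions in the gene's own direction (vertical axes, dashed line at 50%). The upper panel shows each library by helper with mean ± SD (n = 10 each), from EPOR at 11.6% to MCL1 at 54.6% when pooled. The lower panel shows introns and last exon of the canonical transcript over 20 libraries where at least 20 insertions fell. The last exon lies above the introns in each of the 7 genes that have both. In STAT5A and BCL2L1 the last exon has 1 TTAA site.

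The helpers gave close to the same picture, with a small difference at PIM1. Scaled to the library total (CPM), the PIM1 window stood at 316, 345 and 370 with hyPBase and 290, 306 and 336 with hyPBase-centrip. The groups overlapped at their edges. The log2 fold of hyPBase-centrip over hyPBase was -0.18 ± 0.027 SE (edgeR quasi-likelihood adjusted p = 5.27e-07), and the ratio to the rest of 1 Mb differed too (log2 -0.16 ± 0.030 SE, limma adjusted p = 0.0190, a call made for 0.434% of genes). The latter did not pass with at least 2 reads per insertion (limma adjusted p = 0.201), with barcodes collapsed (0.293), with 20 kb flanks (0.111) or in the body alone (0.940).

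PIM1 was the 1 member of 10 called, where 2.21% of 19599 genes (433) were called lower and 1.16% (227) higher with hyPBase-centrip. With library totals in place of TMM the genes split evenly, 331 lower and 336 higher, and PIM1 was still called (log2 -0.17, edgeR adjusted p = 1.16e-06). All 10 members had negative estimates under both scalings, where 48.5% of all genes had one with TMM. STAT5A and STAT5B share most of their insertions, so these are not 10 separate observations. With TMM the estimates ran from -0.18 at PIM1 and -0.13 at KIT to -0.05 at JAK2. Their median was -0.08, against 0.00 for all genes. Adjusted p-values of the other 9 ran from 0.109 at MCL1 to 0.745 at CISH (edgeR), which does not show that the helpers act alike there.

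The PIM1 difference depended on what was counted. Reads per insertion were lower with hyPBase-centrip, as given above. With insertions of at least 2 reads the log2 fold was -0.12 (edgeR adjusted p = 0.0552), with barcodes collapsed -0.16 (p = 0.106), and in the gene body alone -0.08 (p = 0.645). Without hyPBase-centrip replicate 3, MCL1 was called as well (log2 -0.13, edgeR adjusted p = 0.0117).

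Of the 34 stretches, 31 had enough insertions to test, and 5 were lower with hyPBase-centrip and 0 higher, where 2.96% of 18832 stretches were lower. The 5 were 4 of the 6 around PIM1 and the leading STAT5A and STAT5B stretch (chr17:42311832-42320782). The latter was at 12.9 ± 0.860 times its surroundings (SD, n = 10) with hyPBase and at 11.9 ± 0.526 (SD, n = 10) with hyPBase-centrip (log2 fold -0.15 ± 0.039 SE, edgeR adjusted p = 0.0142). The largest PIM1 stretch differed by -0.16 ± 0.040 (edgeR adjusted p = 0.00849). The PIM1 stretches lie in a window that was itself called lower, so they are not separate observations from it. With barcodes collapsed, no stretch was called in either direction.

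Orientation did not pass between helpers for any gene (limma, 0 of 9386 at the adjusted threshold, 1142 at an unadjusted p below 0.05). PIM1 was at 15.3 ± 3.06% with hyPBase and 21.5 ± 3.22% with hyPBase-centrip (limma adjusted p = 0.115). With overlapped genes included, STAT5B was at 46.3 ± 1.96% and 50.6 ± 1.89% (limma adjusted p = 0.151). Over all genes in the fit the pooled share was 32.4 ± 0.429% and 33.7 ± 0.262%.

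**Figure D5:**
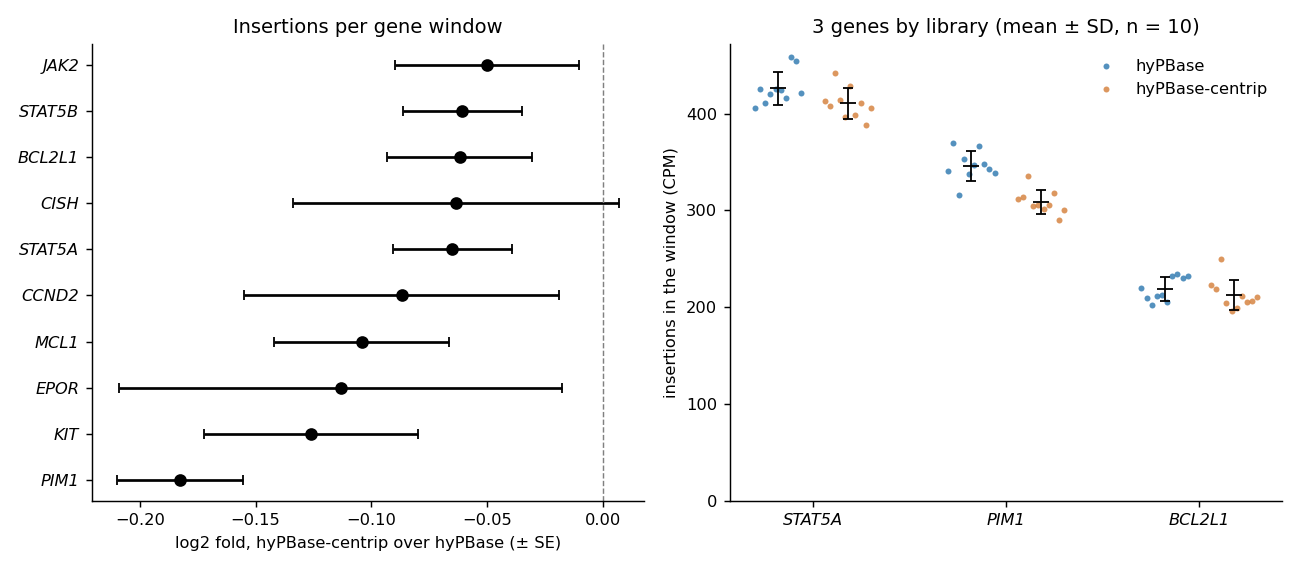
Left, log2 fold of insertions per gene window with hyPBase-centrip over hyPBase (edgeR, ± SE) for the 10 genes, all below 0 and PIM1 lowest at -0.18. Right, CPM in the windows of STAT5A, PIM1 and BCL2L1 by library, with mean ± SD (n = 10 per helper).

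Another 53 genes of cytokine and survival signaling were chosen by role, also with earlier results of these data known. Their local density was that of genes in general. In limma 26 were denser than their surroundings and 20 sparser, with a median of 1.01-fold, and 6 of 53 ranked at or above the 90th percentile. One of the 6 was STAT3 (3.03-fold). Its window overlaps those of STAT5A and STAT5B, so it is not a separate observation from them. The BCL2 family and cyclins had 9 denser and 2 sparser of 12, and feedback genes and adaptors 10 and 2 of 15. Kinases and STAT factors had 3 and 6 of 11, and receptors and ligands 4 and 10 of 15.

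The densest were GAB2, an adaptor that links BCR-ABL1 to downstream kinases (4.27-fold), PMAIP1, the apoptosis activator NOXA (4.15-fold), and LYN, a SRC-family kinase (3.50-fold). The sparsest were JAK3, the lymphoid partner of JAK1 (0.342-fold), IL7R (0.444-fold) and PRLR (0.449-fold), receptors of lymphoid and mammary cells. Between helpers 1 of the 53 was called, GAB2, which was lower with hyPBase-centrip (log2 -0.21 ± 0.026 SE, edgeR adjusted p = 7.32e-10).

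Motifs were also searched in the centres of the leading stretches other than that of PIM1. Of these, 0 of 7 held TTCNNNGAA, which 10.6% of 24013 stretch centres hold, and 1 of 7, that of BCL2L1, held AGATAA, which 22.3% hold. Among the 14 member promoters 1, that of EPOR, held AGATAA, against 10.3% of promoters. The absence of these letters from a 300-base window says nothing about the factors.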

How the data were processed

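The authors deposited, for each library, the position of each insertion on hg38 with its orientation, barcode and count of reads. The counts are raw. The submitters' processing notes name Trimmomatic, BWA and SAMtools, whose versions are not given in the sources used here. Each line was counted as 1 insertion, whatever its reads. Genes and canonical transcripts came from GENCODE version 44, TTAA sites from hg38. The log2 ratio of insertions per TTAA site in the gene window to the rest of the 1 Mb (0.5 added to both counts, at least 10 sites in the window and 500 in the rest) and the log2 ratio of orientations (at least 10 insertions per library on average) were fitted with limma 3.58.1, with the mean over helpers and the helper as terms. Insertions per window or stretch were compared between helpers with edgeR 4.0.16 (TMM, quasi-likelihood, at least 10 insertions in 10 libraries), with DESeq2 1.42.0 as an alternative, in R 4.3.3. P-values were Benjamini-Hochberg adjusted over all genes or stretches. Dense stretches were called from 2 kb windows in steps of 500 bases with at least 4 TTAA sites, 100 insertions (50 in 1 helper alone) and 4 times the density of the 1 Mb centred on them, merged and trimmed. Region values (flanks, body, introns, exons) are pooled ratios to the rest of the 1 Mb outside the window. Percentiles are over genes with at least 10 TTAA sites in the region, or 3 within 1 kb of a start. In region values, later introns include parts of the body outside the canonical transcript. The tests and the stretch caller were tested on simulated data. Tables and figures were made in Python 3.11.15 with numpy 2.4.6, scipy 1.17.1, pandas 2.3.3 and matplotlib 3.10.9.

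The members and lists were chosen with earlier results of these data known. All 10 members are named, with the site and the stretch of most insertions in each window, the 3 densest and 3 sparsest pathway genes, and neighbouring genes that hold a described stretch or site. Alternatives covered reads, barcodes, surroundings, flanks, added counts, normalization, filters, single helpers, 1 library left out, caller settings and a replicate block. For 2 further libraries the title and description name different helpers, and they were not used. The centre of the leading PIM1 stretch is not reported here. The recovery of an insertion from RNA can differ by position and orientation, and its part in the results was not tested.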

Additional observations from a re-analysis of the deposited data

Results flagged for a closer look

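The PIM1 window differed between helpers in its density relative to the rest of 1 Mb, with a log2 difference of -0.16 (hyPBase-centrip minus hyPBase, limma adjusted p = 0.0190). Over 9 alternatives the limma adjusted p ran from 0.0114 to 0.940, and 5 of them lost the call. The part of reads per insertion, which were also lower with hyPBase-centrip, was not tested beyond the count of insertions with at least 2 reads given above.

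In 35 groups of 10 libraries, 1 for each member, helper and measure (local density or orientation) with enough insertions, 3 values lay far from the other libraries of their group (by Dixon's gap ratio, which chance passes in about 1 in 20 groups). All 3 concern MCL1. Its local density in hyPBase-centrip replicate 3 was 3.05-fold, where the next library was at 2.52-fold. The share of insertions in the MCL1 body in its own direction was 87.5% in hyPBase replicate 6 (next 62.5%) and 73.1% in hyPBase-centrip replicate 8 (next 56.4%).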

How the results depend on the processing

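For local density, 7 members stayed denser than their surroundings under each alternative in which they were tested, except MCL1 in the gene body alone (log2 -0.24). EPOR turned to 0.19 with the rest of 2 Mb, 0.16 with 20 kb flanks and 1.69 in the body alone, and did not pass with 5 added to the counts (-0.04) or in hyPBase alone (-0.13). With barcodes collapsed 1 member was called sparser instead of 3, and STAT5A fell from 1.93 to 1.35. With 20 kb flanks MCL1 was at 0.21, STAT5A at 2.81 and CISH at 3.41. In the body alone STAT5A was at 0.44, PIM1 at 2.54 and BCL2L1 at 3.20. With the rest of 2 Mb PIM1 was at 2.28, and JAK2 (-0.19) was above KIT (-0.64). With the window counted in the 1 Mb BCL2L1 was at 1.498. CISH could not be tested in the body alone, where 6135 genes were denser instead of 9456.

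Between helpers, 227 genes were higher and 433 lower with hyPBase-centrip. With library totals in place of TMM they were 336 and 331. Higher calls came to 104 with DESeq2, 386 with library size as a term, 105 in gene bodies and 8 with barcodes collapsed. Lower calls came to 288 with at least 2 reads, 201 in bodies and 37 with barcodes collapsed. Members called were 0 with at least 2 reads, with barcodes collapsed or in bodies, and 2 without hyPBase-centrip replicate 3. Estimates that did not pass turned sign for BCL2L1 (0.022, at least 2 reads) and, in bodies, for STAT5A (0.039), JAK2 (0.0075) and MCL1 (0.052). The cause was not tested. Stretches lower or higher with hyPBase-centrip came to 0 with barcodes collapsed (edgeR, 204 of 11661 at an unadjusted p below 0.05).

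For orientation, genes with more insertions in their own direction numbered 483, against 216 with barcodes collapsed, 249 without sites in stretches and 872 with overlapped genes included. Members called opposite were 3 of 3 without sites in stretches, where fewer had enough insertions, and 8 with overlapped genes. Helper estimates that did not pass turned sign for BCL2L1 (-0.011 with barcodes collapsed, -0.14 without stretches) and CCND2 (0.018 without stretches).

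Stretches in the genome numbered 14952 with barcodes collapsed and 15217 with 4 kb windows, and those in the member windows 21 with barcodes collapsed, 62 with 1 kb windows, 19 with 4 kb windows and 21 with 100 kb surroundings, instead of 34.

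Libraries of the 2 helpers share replicate numbers. Same-numbered libraries did not deviate together (correlations -0.047 to 0.046, best with the own number in 1 of 10). Such correlations cannot tell whether these libraries shared a dish or an RNA isolation. With the replicate block 210 genes were higher and 391 lower, 1 member was called, and 557 stretches were lower and 321 higher. The block ended no call of a member in window density, insertions per window or orientation, and the 5 member stretches called stayed called, but the PIM1 difference in local density between helpers (-0.16) no longer passed (limma adjusted p = 0.103). That difference was also lost with at least 2 reads (-0.13), barcodes collapsed (-0.15), 20 kb flanks (-0.14) and the body alone (-0.017).

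Density near the ceiling of 52 insertions per site and library understates the fullest sites, and bodies with few TTAA sites, CISH above all, are hardly sampled.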
